A study of Mus musculus with 12 samples.

Results

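The 10 genes described here are 6 fibroblast growth factor (FGF) ligands (Fgf1, Fgf2, Fgf5, Fgf7, Fgf10 and Fgf18), 3 FGF receptors (Fgfr1, Fgfr2 and Fgfr3) and hepatocyte growth factor (Hgf), taken by symbol from a table of 21556 genes. They were measured by RNA sequencing of primary skin fibroblasts of wild type (WT) mice, labelled C57BL/6, and of Nox4 knockout (Nox4 KO) mice, labelled B6.129-Nox4tm1Kkr/J. Nox4 codes for NADPH oxidase 4, an enzyme that forms hydrogen peroxide and whose role in the transition from fibroblast to contractile, matrix-secreting myofibroblast was the question of the study. Of the 12 libraries, 3 were WT control, 3 were WT given TGF-β2 (24 h at a dose of 10 ng/ml), 3 were Nox4 KO control and 3 were Nox4 KO given the same dose. All cells were grown out of abdominal skin, kept in serum, passaged and starved before the stimulation, and the Nox4 disruption was a germline allele, so each Nox4 KO culture lacked intact Nox4 before and during the stimulation. By the methods of the study, WT and Nox4 KO mice came from separate litters, and an effect of litter or of flanking 129 genome cannot be told apart from the genotype. The labels do not say whether replicates were separate mice, so p-values measure the spread between these libraries, which may in part be technical.

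FGFs are secreted proteins that bind heparan sulfate and signal through receptor tyrosine kinases, which pass the signal on through the adaptor FRS2 to the RAS and ERK kinases. In skin, FGF7 (keratinocyte growth factor) and FGF10 are made by fibroblasts and act mainly on the epithelial splice form of FGFR2 in keratinocytes, whereas FGF1 and FGF2 act widely, also on the fibroblasts themselves. HGF is another fibroblast product that acts on epithelial and endothelial cells, through the receptor MET. These factors carry signals from the dermis to the epidermis and to vessels during wound repair.

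Expression is given as RPKM, the reads per kilobase of exon scaled to the total count of the library, computed here from the deposited counts. Total counts were between 35118344 and 43796260 per library, so 3 reads of a gene of 2 kb corresponded to at most 0.0427 RPKM. A gene was tested where its mean reached 1 RPKM in at least 1 of the groups compared, and it was called where edgeR's quasi-likelihood test gave a Benjamini-Hochberg adjusted p under 0.05 over all tested genes with a change of at least 2-fold. Of the 10 genes, 7 were tested and 3 (Fgf1, Fgf5 and Fgfr3) stayed under that limit in every group. The cells carried the markers of their label, since all 9 fibroblast markers averaged over 1 RPKM in each group and summed to 5460 to 8030 RPKM per library, mostly from Col1a1, Col1a2 and Vim. Within this list Pdgfra, Col3a1 and Thy1 were lower after TGF-β2 in every library of their genotype. Pdgfra averaged 39.9 ± 9.06 and 3.79 ± 0.916 RPKM in WT control and TGF-β2 (n = 3) and 27.7 ± 5.52 and 3.31 ± 0.437 in Nox4 KO. Col3a1 averaged 1060 ± 215 and 451 ± 99.4 in WT, and 847 ± 126 and 422 ± 56.3 in Nox4 KO. Thy1 averaged 521 ± 43.1 and 346 ± 71.7 in WT, and 514 ± 139 and 297 ± 33 in Nox4 KO. The 6 keratinocyte markers summed to at most 0.92 RPKM and the 5 Schwann cell and melanocyte markers to at most 1.29. The 4 endothelial markers summed to 2.51 to 4.1 RPKM in WT control and 1.67 to 2.34 after TGF-β2, and to 3.01 to 5.38 and 2.4 to 2.86 in Nox4 KO, mostly from Kdr, with Pecam1 and Cdh5 at most 0.133. Of these, Tek averaged 0.951 and 0.19 RPKM in WT and 0.594 and 0.119 in Nox4 KO. The 6 myeloid markers, mostly Lyz2, summed to 18.1 to 107 RPKM in controls and 11.7 to 72.6 after TGF-β2. The 4 adipocyte markers, mainly Fabp4, summed to 0.66 to 5.58 RPKM in controls and 0.173 to 1.2 after TGF-β2, and the 4 skeletal muscle markers, mainly Acta1, to 42 to 110 and 256 to 615. Of the muscle markers only Acta1 rose, with means of 65.1 and 418 RPKM in WT and 90.8 and 429 in Nox4 KO. Des averaged 3.47 and 2.55 RPKM in WT and 5.76 and 3.58 in Nox4 KO, and Myod1 and Myog were at most 0.04. The part of these shifts in the values below was not tested, and in bulk RNA fewer cells of a type and less RNA per cell cannot be told apart. Nox4 itself still had 102 to 207 reads in Nox4 KO controls, against 203 to 398 in WT controls, and 782 to 1175 against 1314 to 2471 after TGF-β2. A count over the whole gene does not resolve the disrupted part.

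In WT control fibroblasts the levels fell into steps. Fgf7, at 73.6 ± 7.03 RPKM (mean ± SD, n = 3), and Fgfr1, at 64.9 ± 8.73, stood at the top and overlapped. Fgf2 followed at 42.2 ± 3.48 RPKM, below both in every library. Fgf10 (12.0 ± 2.1), Fgf18 (11.7 ± 4.95) and Fgfr2 (8.99 ± 1.18) formed a step in which neighbours overlapped, and Hgf lay under them at 4.87 ± 1.13 RPKM. Fgfr3 (0.682 ± 0.0728), Fgf5 (0.106 ± 0.0241) and Fgf1 (0.0354 ± 0.00701) came last, in that order and without overlap. After TGF-β2 the order was another one: Fgfr1 (79.0 ± 10.1 RPKM) and Fgf2 (51.9 ± 9.19) led, Fgf7 (19.7 ± 1.16) and Fgf18 (13.5 ± 1.45) followed, and Fgf10 had gone below Fgfr2 and Hgf to 0.701 ± 0.304, where it overlapped with Fgfr3. Nox4 KO fibroblasts had Fgf7 and Fgfr1 at the top in control, at 61.7 ± 14.9 and 61.2 ± 4.06 RPKM, and Fgfr1 and Fgf2 at the top after TGF-β2, at 78.6 ± 15.9 and 49.6 ± 12.5. These levels use the exon length of protein-coding transcripts. With the exons of all transcripts, Fgfr1 fell below Fgf2 in all 4 groups.

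**Figure D1:**
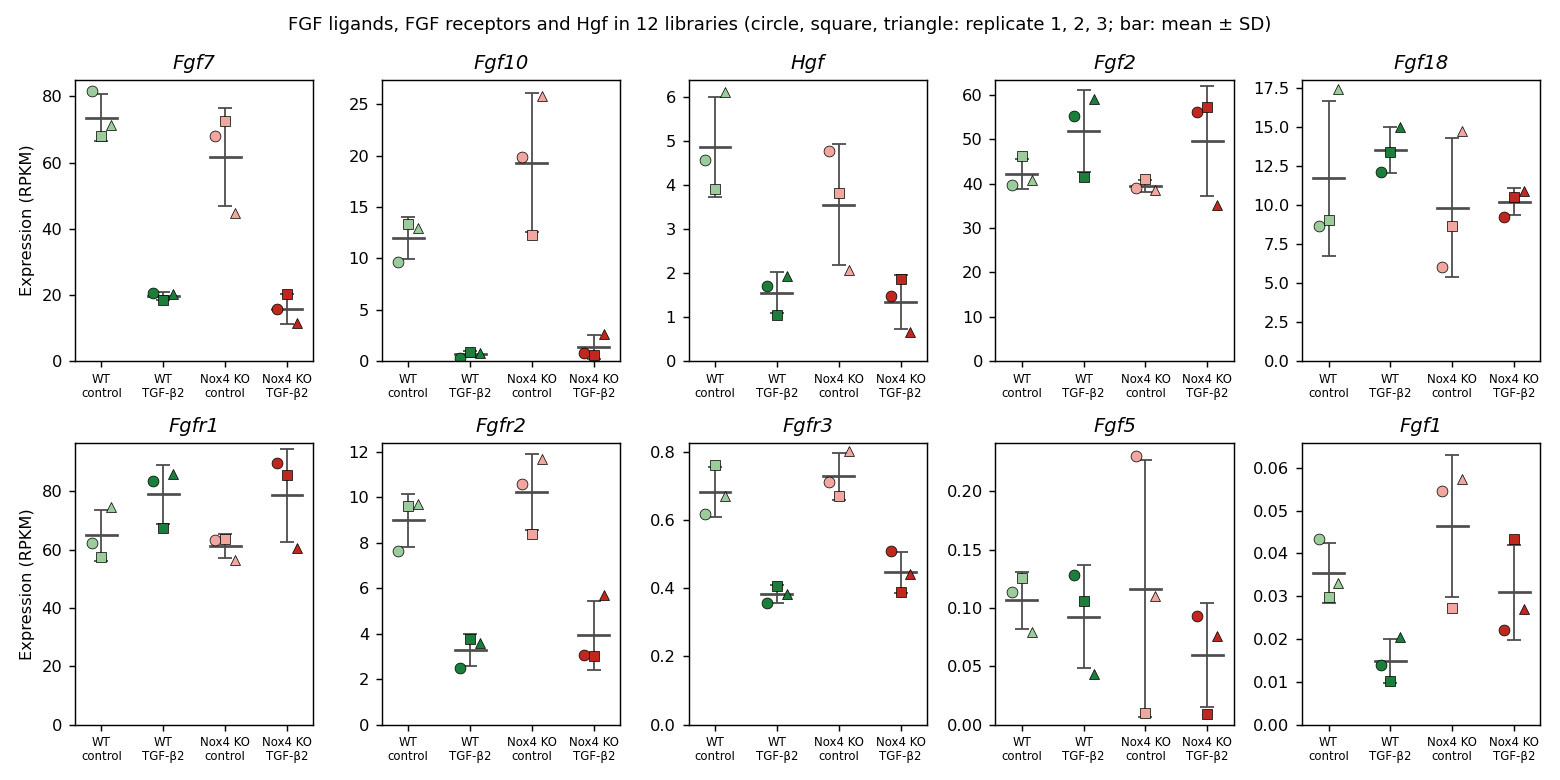
Expression in RPKM of the 10 genes, 1 panel per gene with its own axis from 0, in WT control, WT with TGF-β2, Nox4 KO control and Nox4 KO with TGF-β2. Points are libraries (circle, square and triangle for replicates 1, 2 and 3), and bars give mean ± SD of 3 libraries. Fgf7, Fgf10, Hgf and Fgfr2 sit lower after TGF-β2 in every library of both genotypes, and Fgf2, Fgf18 and Fgfr1 overlap between control and TGF-β2.

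TGF-β2 was compared with control in each genotype. In WT, 4 of the 7 tested genes were called lower (Fgf7, Fgf10, Hgf and Fgfr2) and none higher, beside 5.09% of all 10743 tested genes called lower and 2.62% called higher. In Nox4 KO, 3 of 7 were called lower (Fgf7, Fgf10 and Fgfr2) and none higher, beside 4.58% lower and 2.22% higher of 10809. Fgf2, Fgf18 and Fgfr1 were called in neither genotype. The median log2 fold change of all tested genes was 0.00 in WT and -0.01 in Nox4 KO.

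The stretch before the start of transcription is shown for the 4 genes that were called lower in at least 1 genotype. Each is the 250 bases that end just before the start given by RefSeq on GRCm38.p6, read along the gene's own strand. None of the transcript that begins there is in it. For Fgf10 and Fgfr2 the window lies inside the annotated gene span, which reaches upstream to 118669791 and 133123350, so other annotated transcripts begin further upstream. Of the 10 genes, 8 had an entry. Capitals mark the SMAD box CAGAC on either strand (GTCTG on the printed strand where the box lies on the other one). Windows that held it were 42.2% of 32851 RefSeq promoters. Also searched on both strands was the AP-1 site TGANTCA, held by 6.75%,. A match is a description of letters and not a binding site.
Fgf7, plus strand of chr2:126034408-126034657: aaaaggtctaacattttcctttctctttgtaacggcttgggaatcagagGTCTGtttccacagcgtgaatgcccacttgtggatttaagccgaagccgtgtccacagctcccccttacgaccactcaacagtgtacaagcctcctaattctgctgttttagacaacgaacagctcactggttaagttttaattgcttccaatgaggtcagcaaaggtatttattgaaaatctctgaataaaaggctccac
Fgf10, plus strand of chr13:118714449-118714698: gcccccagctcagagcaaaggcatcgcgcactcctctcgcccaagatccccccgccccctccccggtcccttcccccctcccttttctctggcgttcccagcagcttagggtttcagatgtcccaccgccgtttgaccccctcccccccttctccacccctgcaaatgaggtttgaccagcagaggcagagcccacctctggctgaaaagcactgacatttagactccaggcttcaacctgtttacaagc
Hgf, plus strand of chr5:16553245-16553494: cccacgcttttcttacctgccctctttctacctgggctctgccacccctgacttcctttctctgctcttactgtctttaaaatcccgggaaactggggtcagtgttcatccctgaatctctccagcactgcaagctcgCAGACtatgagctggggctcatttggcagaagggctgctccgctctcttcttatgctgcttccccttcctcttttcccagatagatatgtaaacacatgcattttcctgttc
Fgfr2, minus strand of chr7:130266809-130267058: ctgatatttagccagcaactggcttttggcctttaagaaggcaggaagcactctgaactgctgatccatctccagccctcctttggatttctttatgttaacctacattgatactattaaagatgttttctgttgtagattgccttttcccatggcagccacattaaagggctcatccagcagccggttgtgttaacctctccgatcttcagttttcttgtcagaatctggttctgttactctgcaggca
The SMAD box was found once before Fgf7, starting 201 bases before the start, and once before Hgf, starting 112 bases before it, and not before Fgf10 or Fgfr2. The AP-1 site was not found in any of the 4 windows. The windows differed in base composition, with 61.2% G and C for Fgf10, 50.8% for Hgf, 44% for Fgfr2 and 43.6% for Fgf7, beside a median of 52.4% over all promoters. In Fgf2, which was not called, the box was found once, and in Fgf18, also not called, at 2 places.

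Fgf7 codes for keratinocyte growth factor and lies on the plus strand at chr2:126034658-126091185 (GRCm38). It measured 81.5, 68.0 and 71.2 RPKM in the 3 WT control libraries and 20.5, 18.4 and 20.2 after TGF-β2. The Nox4 KO libraries measured 68.0, 72.4 and 44.7 RPKM in control and 15.8, 20.4 and 11.4 after TGF-β2. Every stimulated library of either genotype lay below every control library of either genotype, and replicate 3 was the lowest of the Nox4 KO libraries in both conditions. The fall was 3.63-fold in WT (log2 fold change -1.86, SE 0.12, adjusted p = 0.000423 by edgeR) and 3.67-fold in Nox4 KO (-1.88, SE 0.28, adjusted p = 0.0074). The smallest count behind these values was 1515 reads.

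Fgf10, the second fibroblast ligand of the epithelial FGFR2 form, had the steepest fall of the 7 tested genes in both genotypes. Its protein-coding transcript begins at 118714699 on the plus strand of chromosome 13. WT control libraries measured 9.61, 13.4 and 13.0 RPKM, and stimulated ones 0.352, 0.909 and 0.842. Nox4 KO control libraries measured 19.9, 12.3 and 25.8 RPKM, and stimulated ones 0.827, 0.572 and 2.69. The groups did not overlap in either genotype, and the highest stimulated library, Nox4 KO replicate 3, shared its number with the highest control library. The log2 fold change was -4.07 (SE 0.34, adjusted p = 0.000889 by edgeR) in WT, a 16.8-fold fall on counts of 1388 to 2160 in control and 59 to 141 after TGF-β2. It was -3.74 (SE 0.63, adjusted p = 0.0101) in Nox4 KO, a 13.4-fold fall. Counted from the steepest fall, Fgf10 ranked 16 among the 10743 genes tested in WT and 18 among the 10809 tested in Nox4 KO. Without replicate 3 of stimulated Nox4 KO the log2 fold change there was -4.69 (adjusted p = 0.00344 by edgeR). That was the steepest of the 6 fits in Nox4 KO that each left out 1 library. The shallowest was -3.38, and the highest adjusted p of the 6 was 0.0369.

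Hgf, at chr5:16553495-16620152 on the plus strand, codes for the ligand of MET. It measured 4.58, 3.92 and 6.13 RPKM in WT control and 1.71, 1.05 and 1.93 after TGF-β2, and the groups did not overlap. The fall was 3.01-fold (log2 fold change -1.59, SE 0.27, adjusted p = 0.00835 by edgeR). In Nox4 KO it measured 4.78, 3.83 and 2.07 RPKM in control and 1.48, 1.87 and 0.675 after TGF-β2, and the groups lay close together: they did not overlap in RPKM and overlapped in CPM scaled by TMM factors. Replicate 3 was the lowest in both conditions. The log2 fold change was -1.32 (SE 0.46, adjusted p = 0.0748), which did not pass. With the replicate number as a block (same-numbered Nox4 KO libraries deviated together), it was -1.34 (adjusted p = 0.00165) and passed. DESeq2 gave an adjusted p of 0.0155.

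Among the ligands that were not called, Fgf2 (basic FGF, at chr3:37348346-37410108) measured 39.6, 46.1 and 40.8 RPKM in WT control and 55.2, 41.5 and 59.0 after TGF-β2. The Nox4 KO libraries measured 38.9, 41.1 and 38.5 RPKM in control and 56.2, 57.3 and 35.2 after TGF-β2. In each genotype 2 stimulated libraries lay above all controls and 1 did not (replicate 2 of WT, replicate 3 of Nox4 KO). The log2 fold changes were 0.34 (SE 0.16, adjusted p = 0.167 by edgeR) in WT and 0.42 (SE 0.19, adjusted p = 0.154) in Nox4 KO. With 1 library left out, the adjusted p by edgeR lay between 0.0153 and 0.402 in WT and between 0.0054 and 0.391 in Nox4 KO. The log2 fold changes then reached at most 0.49 and 0.61, under 2-fold. Exons of Fgf2 share 640 bp with Nudt6 on the opposite strand and 255 bp with Gm43439. Nudt6 had 18 to 39 reads per library against 9082 to 16388 for Fgf2.

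Fgf18, a ligand known from hair follicle and skeletal growth, at chr11:33117430-33147400 on the minus strand, varied most within control groups among the 7 tested genes. It measured 8.64, 9.06 and 17.4 RPKM in WT control and 12.1, 13.4 and 15 after TGF-β2. In Nox4 KO it measured 6.05, 8.68 and 14.7 RPKM in control and 9.21, 10.5 and 10.9 after TGF-β2. Replicate 3 was the highest control library of both genotypes, and control and stimulated libraries overlapped. The log2 fold changes were 0.25 (SE 0.26, adjusted p = 0.52 by edgeR) in WT and 0.15 (SE 0.30, adjusted p = 0.736) in Nox4 KO. The WT value was 0.65 (adjusted p = 0.0374) without replicate 3 of the control, still under 2-fold.

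The receptors diverged. Fgfr2 (chr7:130162451-133123350, minus strand) measured 7.63, 9.63 and 9.70 RPKM in WT control and 2.48, 3.77 and 3.58 after TGF-β2. The levels in Nox4 KO were 10.6, 8.39 and 11.7 RPKM in control and 3.07, 3.02 and 5.69 after TGF-β2. All stimulated libraries lay below all controls. The fall was 2.67-fold in WT (log2 fold change -1.42, SE 0.17, adjusted p = 0.00274 by edgeR) and 2.45-fold in Nox4 KO (-1.30, SE 0.27, adjusted p = 0.0181). The Nox4 KO call was lost without control replicate 1 (adjusted p = 0.0561), stimulated replicate 1 (0.0547) or stimulated replicate 2 (0.0697). With the replicate block its adjusted p was 0.00153. A long isoform of Fgfr2 shares 314 bp of exon with Ctbp2 on the same strand. Ctbp2 had means of 9.23 and 10.7 RPKM in WT control and TGF-β2, so it did not fall with Fgfr2. Counts per gene do not separate the epithelial from the mesenchymal splice form of the receptor.

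Fgfr1, the main FGF receptor of mesenchymal cells, at chr8:25513654-25575718, measured 62.4, 57.6 and 74.6 RPKM in WT control and 83.6, 67.4 and 85.9 after TGF-β2. The levels in Nox4 KO were 63.3, 63.7 and 56.5 RPKM in control and 89.8, 85.7 and 60.4 after TGF-β2. In each genotype the same replicate that was low for Fgf2 after stimulation lay among the controls. The log2 fold changes were 0.33 (SE 0.14, adjusted p = 0.14 by edgeR) in WT and 0.45 (SE 0.17, adjusted p = 0.0884) in Nox4 KO, where the replicate block gave 0.43 (adjusted p = 0.00966), under 2-fold. Its exons share 164 bp with the antisense gene Gm16159. The level of Fgfr1 over that of Fgfr2 was between 4.83 and 8.18 in the 6 control libraries and between 10.6 and 33.7 in the 6 stimulated ones. The lowest stimulated ratio was that of Nox4 KO replicate 3, next to 28.4 and 29.3 in the other replicates of its group.

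**Figure D2:**
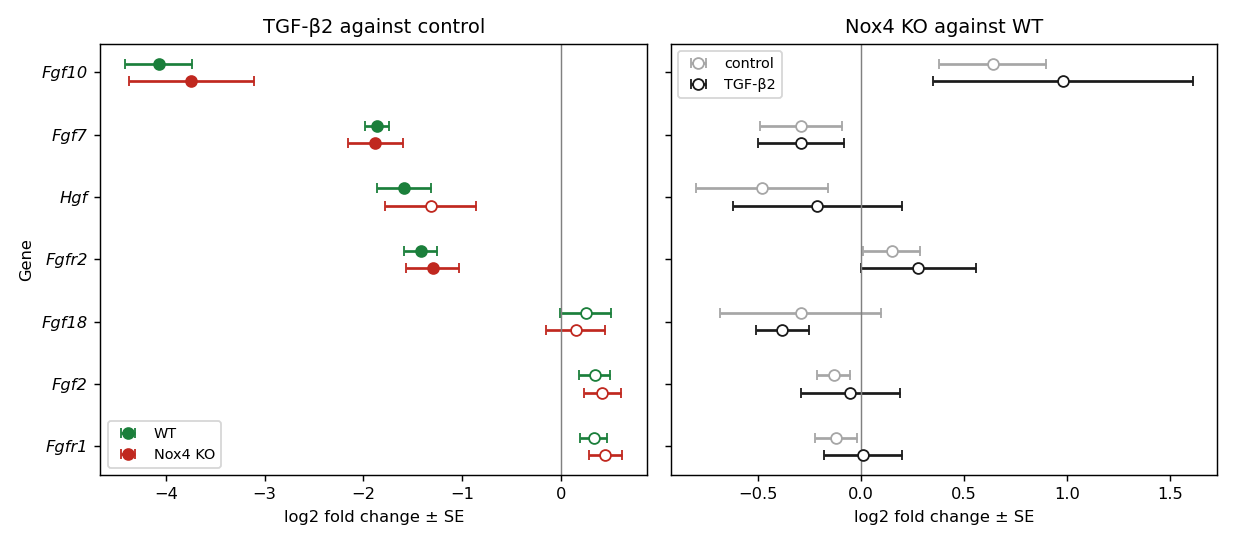
Log2 fold change ± SE from edgeR for the 7 tested genes, for TGF-β2 against control in WT and Nox4 KO (left) and for the genotypes in control and after TGF-β2, Nox4 KO over WT (right, with its own scale). Filled points were called (adjusted p under 0.05 and at least 2-fold) and open points were not. Fgf10 lies near -4 in both genotypes, Hgf is filled in WT and open in Nox4 KO, and no point on the right is filled.

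The remaining genes were at low levels. Fgfr3 measured between 0.616 and 0.76 RPKM in WT control and between 0.356 and 0.407 after TGF-β2, on 66 to 134 reads, and between 0.669 and 0.803 and between 0.39 and 0.509 in Nox4 KO. The groups did not overlap in either genotype. With a limit of 0.5 RPKM in place of 1 it was tested, and it entered that test only through its control groups. Its log2 fold change was then -0.76 in WT (adjusted p = 0.0205 by edgeR) and -0.60 in Nox4 KO (adjusted p = 0.0408), both under 2-fold. Without any filter it was -0.76 in WT (adjusted p = 0.0358 by edgeR) and -0.59 in Nox4 KO (adjusted p = 0.0659). Its exons share 487 bp with G630022F23Rik on the other strand. Fgf1 had 6 to 8 reads in WT control and 2 to 4 after TGF-β2, and 6 to 11 and 5 to 10 in Nox4 KO. Fgf5, a ligand known for ending the growth phase of hair, had 4 to 13 reads in WT libraries. In Nox4 KO it had 22, 1 and 10 reads in control and 10, 1 and 8 after TGF-β2, so replicate 2 held 1 read in both conditions. Without the filter neither was called by edgeR, with log2 fold changes for Fgf1 of -1.14 in WT (adjusted p = 0.19) and -0.45 in Nox4 KO (adjusted p = 0.547), and for Fgf5 of -0.12 (adjusted p = 0.901) and -0.84 (adjusted p = 0.591).

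Over all 10 genes, whether tested or not, 6 had every stimulated WT library below every WT control library (Fgf1, Fgf7, Fgf10, Fgfr2, Fgfr3 and Hgf) and none had every one above. In Nox4 KO the count was 5, without Fgf1. These counts are on CPM scaled to library totals. Scaled by TMM factors, the WT genes were the same 6, whereas in Nox4 KO Hgf overlapped (p = 0.2 by the exact permutation test) and Fgfr1 was separated upwards, which left 4 separated downwards. Of the 7 tested genes, 4 were so separated in each genotype on the scale of library totals. Among all tested genes such separation was common on that scale: 24.9% of all genes in WT and 31.5% in Nox4 KO were separated downwards, and 20.3% and 17% upwards. For a single gene the two-sided exact permutation test of 3 libraries against 3 cannot go below 0.1, and it was 0.1 for each of these genes on that scale.

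The mix of ligand transcripts was another after TGF-β2. The 6 FGF ligands summed to between 124 and 142 RPKM in control libraries and to between 60.3 and 95.0 in stimulated ones. Fgf7 and Fgf10, the ligands of the epithelial FGFR2 form, made up 59.1 to 65.3% of that sum in WT control and 22.1 to 25.9% in stimulated WT, and 56.9 to 66.0% and 20.2 to 23.6% in Nox4 KO. The share of Fgf2 was 28.4 to 33.7% in the 6 control libraries and 55.9 to 68.4% in the 6 stimulated ones. Fgf7 over Fgf2 was at least 1.16 in every control library and at most 0.442 in every stimulated one. These shares follow from the falls of Fgf7 and Fgf10 given above and are no separate test.

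**Figure D3:**
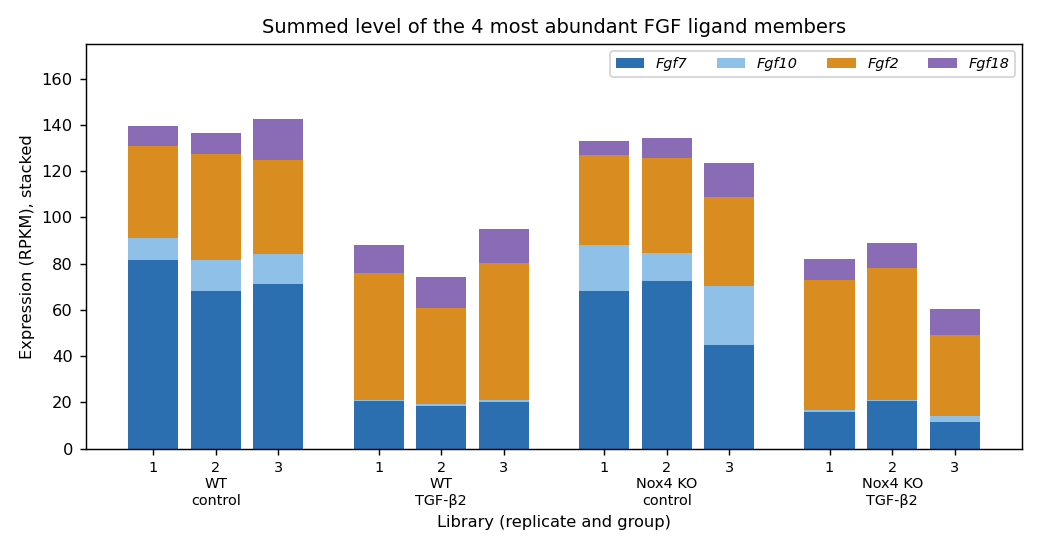
Stacked RPKM of Fgf7, Fgf10, Fgf2 and Fgf18 in each of the 12 libraries, grouped by genotype and stimulation, with the axis from 0. Fgf1 and Fgf5 are too low to show. Fgf7 is the tallest segment in each control library and Fgf2 in each stimulated library.

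Nox4 KO was compared with WT in control and after TGF-β2, to ask whether loss of Nox4 went with another level of these genes. None of the 7 tested genes was called in either condition, beside 0% of 10767 genes in control and 0% of 10439 genes after TGF-β2 by edgeR. Over all genes 597 and 337 had an unadjusted p under 0.05, and DESeq2 called 6 in each, none of them among the 7. The widest difference in control was that of Fgf10, with a log2 fold change of 0.64 in Nox4 KO over WT (SE 0.26, unadjusted p = 0.0479, adjusted p = 0.828). After TGF-β2 it was 0.98 (SE 0.63, adjusted p = 0.838), with Nox4 KO replicate 3 at 2.69 RPKM and the other libraries of its group inside the WT range. Fgf18 was lower in all 3 stimulated Nox4 KO libraries than in the stimulated WT libraries (log2 fold change -0.38, SE 0.13, unadjusted p = 0.0227, adjusted p = 0.838), where 5.92% of all tested genes were separated downwards and 4.16% upwards. Fgf1 was the other separated gene, upwards, on 2 to 10 reads, and scaled by TMM factors Fgfr3 was also separated upwards. The log2 differences of Fgf2, Fgf7, Fgfr1, Fgfr2 and Hgf were between -0.48 and 0.15 in control and between -0.29 and 0.28 after TGF-β2, with adjusted p of at least 0.828. These comparisons share their libraries with those of TGF-β2 against control.

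Whether the response to TGF-β2 differed between genotypes was tested as an interaction over all 12 libraries. It was past the limit for none of the 7 genes, with adjusted p of at least 0.911, beside 0% of 10890 genes by edgeR (292 with an unadjusted p under 0.05, and 6 called by DESeq2). The difference of the log2 fold changes, Nox4 KO minus WT, was 0.00 (SE 0.30) for Fgf7, 0.34 (SE 0.72) for Fgf10, 0.14 (SE 0.34) for Fgfr2 and 0.28 (SE 0.57) for Hgf. The call of Hgf in WT and not in Nox4 KO is thus no shown difference between the genotypes. The SEs leave room for differences in response of a log2 unit or more for Fgf10 and Hgf.

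Fgf10 and Fgfr2 varied together from library to library. Over the 12 libraries Fgfr2 was the gene most like Fgf10, with a Pearson correlation of 0.993 of log2 CPM among 10890 genes, followed by Sema3f (0.99) and Smad9 (0.989). For Fgfr2 the closest were Smad9 (0.994), Fgf10 (0.993) and Papss1 (0.985), and for Fgf7 they were Ksr1 (0.986), Pde8b (0.985) and Dio3 (0.983). These values include the step between control and stimulated libraries, which many genes share, and the libraries are the same ones in each, so they are descriptions. Within the groups, replicate 3 of Nox4 KO had the highest Fgf10 and Fgfr2 and the lowest Fgf7 and Hgf of its group, in control and after TGF-β2. Replicate 1 of WT had the lowest Fgf10 and Fgfr2 of its group in both conditions. Fgf7 and Hgf, which like Fgf10 and Fgfr2 fell with TGF-β2 in WT, thus ordered these libraries differently.

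**Figure D4:**
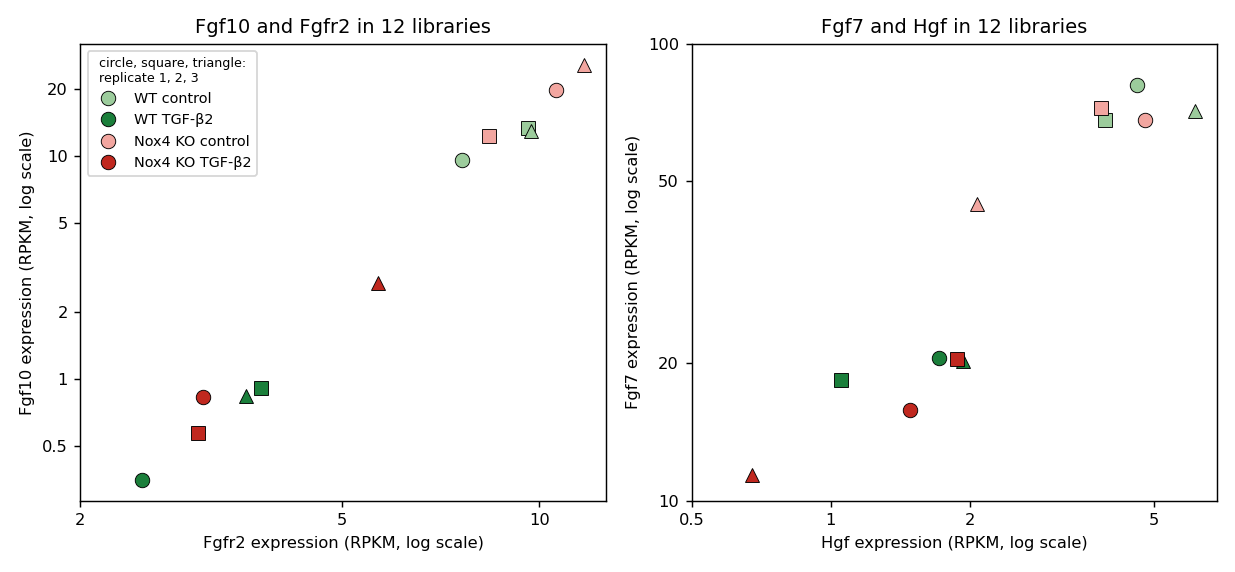
Levels in RPKM of Fgf10 against Fgfr2 (left) and of Fgf7 against Hgf (right) in the 12 libraries, on log axes, with colour for the group and shape for the replicate. Control libraries lie to the upper right of the stimulated libraries in both panels, and the triangles of Nox4 KO lie highest of their groups on the left and lowest of their groups on the right.

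Other genes of FGF and HGF signalling were taken from 6 lists of 84 genes in all, of which 83 were in the table and 54 were tested for TGF-β2 against control. Called higher were 5 in WT and 4 in Nox4 KO, and called lower were 6 and 4, beside the shares of all genes given above. Genes called in both genotypes numbered 7, of which 3 rose and 4 fell. None of the lists held a called gene in Nox4 KO against WT or in the interaction.

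Of the 16 other FGF genes, 15 stayed under a mean of 1 RPKM in every group and 2 of these had no read in any library. The exception was Fgf21, which codes for a hormone-like FGF that acts on metabolism and needs the co-receptor β-Klotho. It rose from 0.404 ± 0.0705 RPKM in WT control to 3.82 ± 0.913 after TGF-β2 (log2 fold change 3.26, SE 0.26, adjusted p = 0.000751 by edgeR). In Nox4 KO it rose from 0.606 ± 0.219 to 4.47 ± 2.95 RPKM (2.98, SE 0.57, adjusted p = 0.0144). Fgf21 reached 1 RPKM only in the stimulated groups, so it entered the test only because it was higher there. It had 11 to 18 reads in WT control and 14 to 27 in Nox4 KO control. Among the FGF ligand genes tested, Fgf21 was the only one called higher, and the other 15 genes of its list were under the filter. The gene of β-Klotho, Klb, had at most 0.0855 RPKM in any library. Of the 9 other FGF receptors, co-receptors and binding proteins, 4 were tested, and their median log2 fold change was 0.52 for WT and 0.39 for Nox4 KO. None was called in WT and 1, Flrt2, was called higher in Nox4 KO (log2 fold change 0.87 in WT and 1.28 in Nox4 KO). Flrt2, and the other genes of the lists called in 1 genotype, are named after their values were seen.

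All 22 carriers and modifying enzymes of heparan sulfate, which FGFs need to bind their receptors, were tested. In WT 3 were called lower and in Nox4 KO 2, none higher, with medians of -0.20 and -0.10. At an adjusted p under 0.05 without the fold limit, 5 were lower and 2 higher in WT. In Nox4 KO 5 were lower and 4 higher. Sdc3 and Ext1, named after their values were seen, were the 2 higher in WT, each 1.81-fold. In Nox4 KO they were 1.81-fold and 1.99-fold higher. Gpc6 was called in WT and not in Nox4 KO, with log2 fold changes of -1.37 (adjusted p = 0.0258) and -0.80 (adjusted p = 0.0859). Sdc4, a cell surface proteoglycan of focal adhesions, fell from 87.6 ± 18.4 to 36.0 ± 4.63 RPKM in WT (log2 fold change -1.25, adjusted p = 0.00582 by edgeR) and from 95.2 ± 35.2 to 31.4 ± 2.29 in Nox4 KO (-1.52, adjusted p = 0.0156). Hs3st1, an enzyme that adds 3-O-sulfate to heparan sulfate, fell from 4.46 ± 2.76 to 0.306 ± 0.122 RPKM in WT (-3.82, adjusted p = 0.00403) and from 3.42 ± 0.867 to 0.261 ± 0.0331 in Nox4 KO (-3.62, adjusted p = 0.00128).

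Of 11 genes for the HGF receptor and the proteases and inhibitors that set HGF activation, 3 reached 1 RPKM. Plau, the urokinase that cleaves plasminogen and can activate HGF, fell from 54.8 ± 15.5 to 13.1 ± 4.23 RPKM in WT (log2 fold change -2.03, adjusted p = 0.00616 by edgeR) and from 54.0 ± 4.5 to 13.4 ± 1.66 in Nox4 KO (-1.92, adjusted p = 0.00126). Met, the HGF receptor, was named after its values were seen, because it pairs with Hgf. It was called lower in WT, from 2.34 ± 0.444 to 0.912 ± 0.13 RPKM (-1.31, SE 0.19, adjusted p = 0.00505). In Nox4 KO it had means of 3.45 ± 1.33 and 1.62 ± 0.525 RPKM (-1, SE 0.32, adjusted p = 0.0591), which did not pass. None of the 10 receptor adaptors, among them those of the FRS2 and GRB2 complex, was called in either genotype, with medians of -0.11 and 0.02.

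Of 14 tested feedback inhibitors and targets of ERK signalling, those called higher were 4 in WT and 2 in Nox4 KO, and 1 was called lower in each genotype, with medians of 0.08 and 0.10. The called genes of this list did not move one way. Etv4 and Phlda1 were called higher in WT, with log2 fold changes of 1.31 and 1.28. In Nox4 KO these were 0.97 for Etv4 (adjusted p = 0.0129, under the fold limit) and 0.99 for Phlda1 (adjusted p = 0.0508). Spry2, a Sprouty inhibitor that FGF signalling itself induces, fell from 19.6 ± 1.47 to 7.4 ± 0.874 RPKM in WT (log2 fold change -1.36, adjusted p = 0.000814 by edgeR) and from 21.4 ± 2.27 to 7.51 ± 1.66 in Nox4 KO (-1.43, adjusted p = 0.00501). Dusp4 and Dusp5, nuclear phosphatases of MAP kinases, rose. Dusp4 went from 15.5 ± 3.19 to 54.6 ± 17.9 RPKM in WT (1.86, adjusted p = 0.00582) and from 16.2 ± 3.43 to 61.4 ± 20.4 in Nox4 KO (2.01, adjusted p = 0.00748). Dusp5 went from 6.37 ± 1.56 to 27.3 ± 3.59 RPKM in WT (2.13, adjusted p = 0.00141) and from 6.48 ± 2.02 to 24.3 ± 9.07 in Nox4 KO (1.99, adjusted p = 0.0129).

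**Figure D5:**
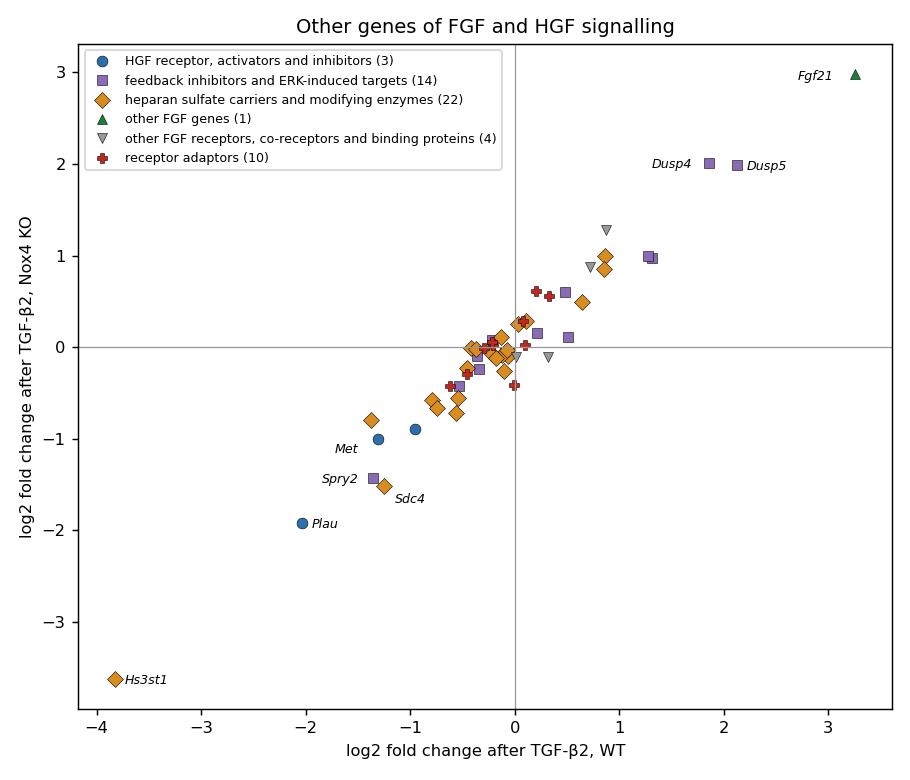
Log2 fold change after TGF-β2 in WT (horizontal) and Nox4 KO (vertical) for the 54 tested genes of the 6 lists, with colour and shape for the list and the number of genes in brackets. Labelled are the 7 genes called in both genotypes and Met. Hs3st1, Plau, Spry2 and Sdc4 lie to the lower left and Fgf21, Dusp4 and Dusp5 to the upper right.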

How the data were processed

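RNA of 12 libraries of primary mouse skin fibroblasts was sequenced with single-end reads. The submitters' processing notes name CASAVA 1.8.2, STAR 2.4 and featureCounts 1.4.6. The authors mapped reads to GRCm38, discarded reads with more than 1 location and deposited raw counts over the merged exons of protein-coding isoforms of 21556 genes, without normalization. Use of the strand in counting is not stated. Each identifier was matched to GENCODE M21 (GRCm38) for symbol and exon length.

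Groups and replicate numbers came from the labels. Each comparison was fitted on its 6 libraries with edgeR 4.0.16 (R 4.3.3, TMM, quasi-likelihood test), with the filter, fold limit and Benjamini-Hochberg adjustment given above, over all genes kept. The SE was derived from the F statistic. Permutation tests used log2(CPM + 0.5). In Nox4 KO, the deviations of a control library and of the stimulated library with its number from the means of their groups correlated (0.764, 0.688 and 0.741), so their numbers were taken as pairs from the data, since the labels do not state it. Limits from counts cover counting error only, and 3 reads set the limit of a count of 0.

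The genes and lists were chosen with earlier results of these data known. Of the lists, genes called in both genotypes are named, and for each gene called in both, the 3 with the most similar profile. Alternatives were DESeq2 1.42.0, RLE normalization, other filters (filterByExpr, 0.5 RPKM or none), a fit of all 12 libraries, the replicate number as a block, calls without a fold limit, other pseudocounts, exon lengths of all transcripts and leaving out each library. Blocks in the fit of all 12 libraries or in DESeq2, and Nox4 KO without replicate 3 of both groups, were added after seeing the data. Promoter sequences came from RefSeq (GRCm38.p6).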

Additional observations from a re-analysis of the deposited data

How the results depend on the processing

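Over the 78 alternatives for the number of the 7 tested genes called, that number stayed within 1.5 times the reported one. Of 545 alternative values of their log2 fold changes, 506 kept direction and side of the limit, 6 went past the limit (all Hgf in Nox4 KO) and 3 no longer passed (all Fgfr2 in Nox4 KO). The other 30 changed sign, and none of these was of a called value. Without any filter, Fgfr1 in stimulated Nox4 KO against stimulated WT was -0.002. The others came from leaving out 1 library. Over those, Fgf18 ranged from -0.10 to 0.54 for TGF-β2 in Nox4 KO and from -0.68 to 0.08 for Nox4 KO against WT in control. For Nox4 KO against WT after TGF-β2, Fgf2 ranged from -0.21 to 0.15, Fgfr1 from -0.11 to 0.17, Fgfr2 from -0.08 to 0.44 and Hgf from -0.52 to 0.12, and without replicate 3 of stimulated Nox4 KO Fgf10 was under the filter. The interaction ranged from -0.61 to 0.71 for Fgf10, -0.48 to 0.28 for Fgf18, -0.08 to 0.28 for Fgf2, -0.23 to 0.19 for Fgf7, -0.22 to 0.29 for Fgfr2 and -0.04 to 0.60 for Hgf. The cause was not tested.

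With the exon length of all transcripts in place of protein-coding ones, the rank by level changed for 4 genes in the controls of WT and 4 in those of Nox4 KO, and for 2 genes in each genotype after TGF-β2. Calls over all genes moved from 829 to 1259 without a filter and to 2425 without a fold limit in WT, and from 735 to 3243 without a fold limit and to 442 without stimulated replicate 2 in Nox4 KO. Calls in the 6 lists moved to 20 without a fold limit in either genotype and to 13 without a filter in Nox4 KO. For Nox4 KO against WT in control, 1 gene was called with all 12 libraries and 1 without Nox4 KO control replicate 2, and after TGF-β2 1 was called without stimulated Nox4 KO replicate 1.

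With the replicate block in Nox4 KO, where the numbers pair the libraries, Hgf passed (adjusted p = 0.00165 by edgeR, and 0.000755 with all 12 libraries) and no other of the 7 calls changed. Same-numbered libraries did not all deviate together in WT (correlations 0.0655, 0.413 and 0.523) or between genotypes (0.0101 to 0.315 in control and -0.182 to 0.299 after TGF-β2), and there the block changed no call of the 7 genes. In Nox4 KO every library correlated best with its own number, and in WT control replicate 1 did not (0.311 with stimulated replicate 2).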

Other observations

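In the Nox4 KO libraries the replicate numbers went with the levels of these genes in both conditions. Replicate 3 had Fgf10 at 25.8 RPKM in control and 2.69 after TGF-β2, against 12.3 to 19.9 and 0.572 to 0.827 in the other two replicates. It had Hgf at 2.07 and 0.675 RPKM, against 3.83 to 4.78 and 1.48 to 1.87. With replicate 3 of both Nox4 KO groups left out, the log2 fold changes were -4.44 for Fgf10, -1.87 for Fgf7, -1.56 for Fgfr2 and -1.28 for Hgf, and 0.59 for Fgf2 and 0.55 for Fgfr1. Replicate 3 was left out because it stood apart on these same genes, so these values are a description with 2 libraries per group and support no call. Whether the replicate numbers stand for mice, cultures or days is not given in the labels.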
